A study of Mus musculus with 14 samples.

Results

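The 43 genes described here belong to the antioxidant, glutathione and metallothionein defences of the cell or regulate them. They were chosen by symbol from a list ordered by role. The roles were the regulators of the antioxidant response (Nfe2l2 and Keap1), 4 classical targets of Nrf2, 4 genes of glutathione synthesis and reduction, 4 glutathione peroxidases, 6 peroxiredoxins, 3 superoxide dismutases with catalase, 5 genes of the thioredoxin system, 5 genes of NADPH supply, 2 ferritin chains, 4 glutathione S-transferases and 3 metallothioneins. All 43 were among the 36118 genes in the deposited table, and all 43 were among the 16637 genes that passed the filter on low counts, with a lowest estimated count in any library of 40 for Nqo1.

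Cells meet oxygen radicals and peroxides with layered enzymes. Superoxide dismutases turn superoxide into hydrogen peroxide, which catalase, the glutathione peroxidases and the peroxiredoxins then reduce, drawing on glutathione, thioredoxin and NADPH. Many of these genes carry antioxidant response elements bound by Nrf2 (encoded by Nfe2l2), which Keap1 holds back until its cysteines are oxidised. Metallothioneins are small cysteine-rich proteins that bind zinc and copper, are induced by metals and glucocorticoids, and in brain are made mostly by astrocytes, with Mt3 also found in neurons.

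RNA was sequenced from the hippocampus of 14 mice at postnatal day 15, with 1 library per mouse. Wild-type mice and littermates homozygous for a global Gsdmd knockout allele (GSDMD-KO), labelled C57/BL6 and given as C57BL/6N in the study's methods, had been kept from postnatal day 1 to 14 in room air (RA) or in hyperoxia at 85% O2. The groups were WT-RA (n = 4), WT-O2 (n = 4), KO-RA (n = 3) and KO-O2 (n = 3), and the question was how hyperoxia and loss of gasdermin D, the pore-forming protein of pyroptosis, affect the newborn hippocampus. Mice are numbered here within a group in the order of their records. The knockout allele is a short CRISPR deletion in the fifth exon and is present in every cell, and wild-type and knockout mice carry separate ranges of animal numbers, so genotype and that range cannot be told apart. One of the 4 WT-O2 mice, number 4, is titled hyperoxia but carries a room-air treatment label, and the title was used.

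Total estimated counts were 27272270 to 28257496 per library. Gsdmd had estimated counts of 44, 48, 51 and 41 in WT-RA, 60, 51, 63 and 60 in WT-O2, 22, 42 and 36 in KO-RA and 38, 36 and 40 in KO-O2. In these counts, not scaled to library size, every knockout library was below every wild-type library of the same exposure except KO-RA mouse 2, at 42 against 41 in WT-RA mouse 4. After scaling the genotypes did not overlap in either exposure. The Gsdmd log2 fold change of knockout against wild type was -0.46 in room air (edgeR adjusted p = 0.168) and -0.58 in hyperoxia (edgeR adjusted p = 0.0962). Gene counts do not show whether the transcripts carry the deletion. Markers of other cell types and regions moved with genotype. Summed CPM (counts scaled to library size) of 7 oligodendrocyte markers were 7810 to 19700 in WT-RA and 4890 to 13100 in WT-O2, against 3350 to 5420 in KO-RA and 3320 to 5870 in KO-O2. Striatal neuron markers, 6 genes, summed to 196 to 498 CPM over the wild-type libraries and 48.3 to 138 over the knockout libraries. Hippocampal neuron markers, 7 genes, summed to 553 to 904 CPM in wild type and 1150 to 1450 in knockout, and all 7 were present in every group. In bulk tissue, fewer cells of a type and less RNA per cell cannot be told apart.

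The promoters of 3 of the genes that the results turn on are shown for the letters known to serve their best-studied regulators. Txnip encodes thioredoxin-interacting protein, which binds thioredoxin and limits glucose uptake. Mt1 and Mt2 are the inducible metallothioneins and serve here as the comparison for metal and antioxidant elements. The sequences are from RefSeq on GRCm38.p6, plus strand, from 250 bases before the transcription start to 30 bases after it. Txnip is at chr3:96557707-96557986, Mt1 at chr8:94178839-94179118 and Mt2 at chr8:94172368-94172647. Capitals mark, in Txnip, a forkhead site (GTAAACA) and a carbohydrate response element (a pair of E-box-like blocks), in Mt1 metal response elements (TGCACNC or TGCGCNC), and in Mt2 metal response elements and 1 antioxidant response element (TGACNNNGC), which there also holds the AP-1 letters TGACTCA. All were searched on both strands.
Txnip: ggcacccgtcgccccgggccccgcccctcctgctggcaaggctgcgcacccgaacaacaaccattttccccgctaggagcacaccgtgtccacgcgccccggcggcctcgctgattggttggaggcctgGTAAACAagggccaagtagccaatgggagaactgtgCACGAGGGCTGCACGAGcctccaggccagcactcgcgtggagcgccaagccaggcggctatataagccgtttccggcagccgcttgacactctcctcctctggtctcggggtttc
Mt1: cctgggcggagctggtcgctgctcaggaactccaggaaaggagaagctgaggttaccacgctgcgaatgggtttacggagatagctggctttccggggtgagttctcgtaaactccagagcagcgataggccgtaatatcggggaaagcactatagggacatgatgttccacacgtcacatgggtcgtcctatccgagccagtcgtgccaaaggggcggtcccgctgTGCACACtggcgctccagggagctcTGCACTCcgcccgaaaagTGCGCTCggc
Mt2: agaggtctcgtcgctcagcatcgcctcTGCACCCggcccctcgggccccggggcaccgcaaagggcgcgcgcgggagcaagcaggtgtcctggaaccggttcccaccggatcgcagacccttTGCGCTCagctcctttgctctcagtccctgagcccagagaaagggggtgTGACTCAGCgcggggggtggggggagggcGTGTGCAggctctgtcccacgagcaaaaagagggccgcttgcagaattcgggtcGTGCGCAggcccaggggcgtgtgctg

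The Txnip match to the carbohydrate response element starts 85 bases before the transcription start, and the forkhead letters start 121 bases before it. Among 32851 RefSeq promoters of 250 bases before to 30 after the start, 0.049% (16) held the carbohydrate element and 3.5% the forkhead letters. Of the 43 genes, 37 had a promoter in that set, and Txnip was the one that held the carbohydrate element. Gclc, Gsr, Prdx6, Sod3, Hmox1 and Gsta4 had no entry. An antioxidant response element was found in 10 of the 37 (27%) against 11.5% of all promoters. The share of the 37 counts genes with a match in any of their promoters, while the share of all counts promoters, so the 2 are not like for like. Those 10 were G6pdx, Gclm, Gstm5, Me1, Mt2, Nfe2l2, Pgd, Prdx1, Sod1 and Txnrd1. Metal response element letters were in 11 of the 37 (29.7%) against 24.1% of all promoters, with 3 matches in Mt1 and 4 in Mt2 over the windows printed. The motifs were chosen with these promoters in view, and a match is a description of letters, not of binding. Mt1 and Mt2 start 6471 bases apart, and Mt2 and Mt3 20011 bases apart.

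The first comparison asked what hyperoxia did in wild-type mice. Of the 43 genes, Txnip, whose protein binds thioredoxin, rose and no other passed the test. Levels are given as CPM scaled by the trimmed mean of M-values (TMM), which compare one gene between libraries and not genes with each other. A gene was called when edgeR's quasi-likelihood test gave a Benjamini-Hochberg adjusted p below 0.1, over all 16637 genes, with a log2 fold change of at least 0.32 in either direction. By this rule 1 of 43 genes was called, against a background of 0.643% of all genes (107). At an unadjusted p below 0.05 there were 3 (Txnip, Gpx1 and Gclm), against 12.2% of all genes. WT-O2 and WT-RA libraries did not overlap for 4 of the 43 (Txnip, Prdx1, Sod3 and Txn2), against 5.99% of all genes. The median log2 fold change of the 43 was -0.01, with 20 positive and 23 negative. Their median absolute log2 fold change was 0.056, against 0.099 over all genes, which were not matched for expression level.

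Txnip was at 33.7, 25.7, 20.2 and 18.1 CPM in WT-RA mice 1 to 4. In WT-O2 mice 1 to 4 it was at 38.8, 37.7, 37.7 and 41.6 CPM. Every hyperoxic library was above every room-air library, and the hyperoxic values lay close together while the room-air values were spread widely. The means were 24.4 ± 6.94 (SD, n = 4) and 39.0 ± 1.84 CPM (SD, n = 4). The log2 fold change was 0.67 (SE 0.15, 95% interval 0.34 to 1.00, 1.59-fold), with adjusted p = 0.0872 by edgeR's quasi-likelihood test.

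In the knockout, Txnip was at 29.2, 34.8 and 37.1 CPM in KO-RA and at 59.4, 44.3 and 51.9 CPM in KO-O2. Again no hyperoxic library was as low as any room-air library. Between them the log2 fold change was 0.62 (SE 0.17, 95% interval 0.25 to 1.00), which did not pass the test (edgeR adjusted p = 0.782). The difference between the responses of the genotypes was -0.05 on the log2 scale (95% interval -0.55 to 0.44, edgeR adjusted p = 1), so neither a difference nor its absence was established. Both responses are measured against their own room-air group, and no libraries are shared between them.

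The Txnip call in wild type lay near the threshold and depended on which libraries were fitted. It was lost without WT-RA mouse 2, 3 or 4, without any 1 of the 4 WT-O2 mice, and without KO-RA mouse 2 or 3 or KO-O2 mouse 1 or 3, with edgeR adjusted p from 0.103 to 0.223 and log2 fold changes from 0.55 to 0.70. Without WT-RA mouse 1, the highest of its group, the log2 fold change was 0.87 (edgeR adjusted p = 0.00515). With WT-O2 mouse 4 placed in room air, as its treatment label says, it was 0.45 (edgeR adjusted p = 0.459). Taking the oligodendrocyte score into the fit gave 0.84 and taking in the striatal and thalamic scores gave 0.69. The part of these cell types in the result was not tested. Red blood cell markers, 5 genes, summed to 279 to 343 CPM in WT-RA and 180 to 247 in WT-O2, none of them called, and their part in the result was not tested.

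**Figure D1:**
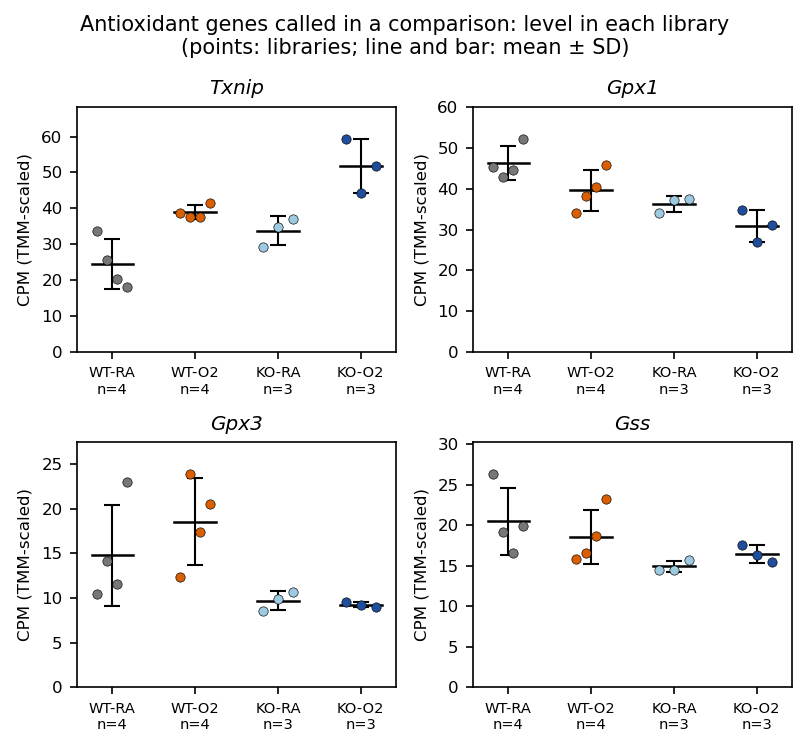
TMM-scaled CPM of Txnip, Gpx1, Gpx3 and Gss in each of the 14 libraries (points), by group, with the mean and SD (line and bar). The 4 WT-O2 libraries of Txnip (37.7 to 41.6) lie above all WT-RA libraries (18.1 to 33.7), and Gpx3 lies at 8.96 to 9.52 in KO-O2 against 12.4 to 23.9 in WT-O2.

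The regulators and classical targets of Nrf2 gave no call in any comparison. Nfe2l2, which encodes Nrf2, was at 17.3, 17.4, 14.1 and 16.4 CPM in WT-RA and at 14.5, 16.2, 15.8 and 15.4 CPM in WT-O2, with a log2 fold change of -0.08 (95% interval -0.31 to 0.15). In the knockout it was at 14.1, 16.3 and 19.5 CPM in room air and at 18.7, 15.0 and 15.2 CPM in hyperoxia. Exposures overlapped in both genotypes. Keap1, its repressor, was at 41.9, 49.5, 50.6 and 49.1 CPM in WT-RA and at 47.7, 47.4, 50.9 and 51.0 CPM in WT-O2, with a log2 fold change of 0.04 (95% interval -0.09 to 0.18). Its 6 knockout libraries lay at 45.6 to 50.8 CPM, within the wild-type range. The transcript level of either gene does not report the activity of the protein, which is set by its stability.

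Hmox1, the inducible heme oxygenase, was at 4.95, 4.16, 3.75 and 5.02 CPM in WT-RA and at 4.03, 4.84, 4.74 and 4.73 CPM in WT-O2. The groups overlapped throughout, and the log2 fold change was 0.04 (95% interval -0.30 to 0.37). Nqo1, a quinone reductase, was at 2.25, 1.97, 1.52 and 2.08 CPM in WT-RA and at 1.47, 2.15, 2.20 and 2.28 CPM in WT-O2. Its log2 fold change was 0.05 (95% interval -0.34 to 0.44), and here too the hyperoxic values fell among the room-air values.

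Slc7a11, the cystine importer that feeds glutathione synthesis, was at 45.8, 45.3, 29.8 and 40.7 CPM in WT-RA and at 48.1, 52.8, 41.7 and 37.5 CPM in WT-O2. Only WT-RA mouse 3 lay below all hyperoxic mice, and the log2 fold change was 0.16 (95% interval -0.12 to 0.44). Srxn1, which repairs overoxidised peroxiredoxins, was at 67.8, 56.5, 48.6 and 59.3 CPM in WT-RA and at 50, 52.2, 59.4 and 64.0 CPM in WT-O2, with a log2 fold change of -0.04 (95% interval -0.24 to 0.16). For these 4 targets each interval in wild type lay within 1.5-fold in either direction, so a larger average response is outside the intervals. In KO-RA and KO-O2, Hmox1 was at 4.64, 4.93 and 4.70 against 5.30, 3.48 and 6.19 CPM, and Nqo1 at 1.89, 2.59 and 2.81 against 2.04, 1.91 and 2.10 CPM. Slc7a11 was at 44.7, 44.1 and 55.8 against 48.2, 45.0 and 48.9 CPM, and Srxn1 at 52.4, 48.5 and 52.4 against 55.0, 51.2 and 50 CPM. All 4 overlapped between the knockout exposures. In the knockout the log2 fold changes with hyperoxia were 0.07 for Hmox1, -0.27 for Nqo1, -0.03 for Slc7a11 and 0.03 for Srxn1, none called.

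**Figure D2:**
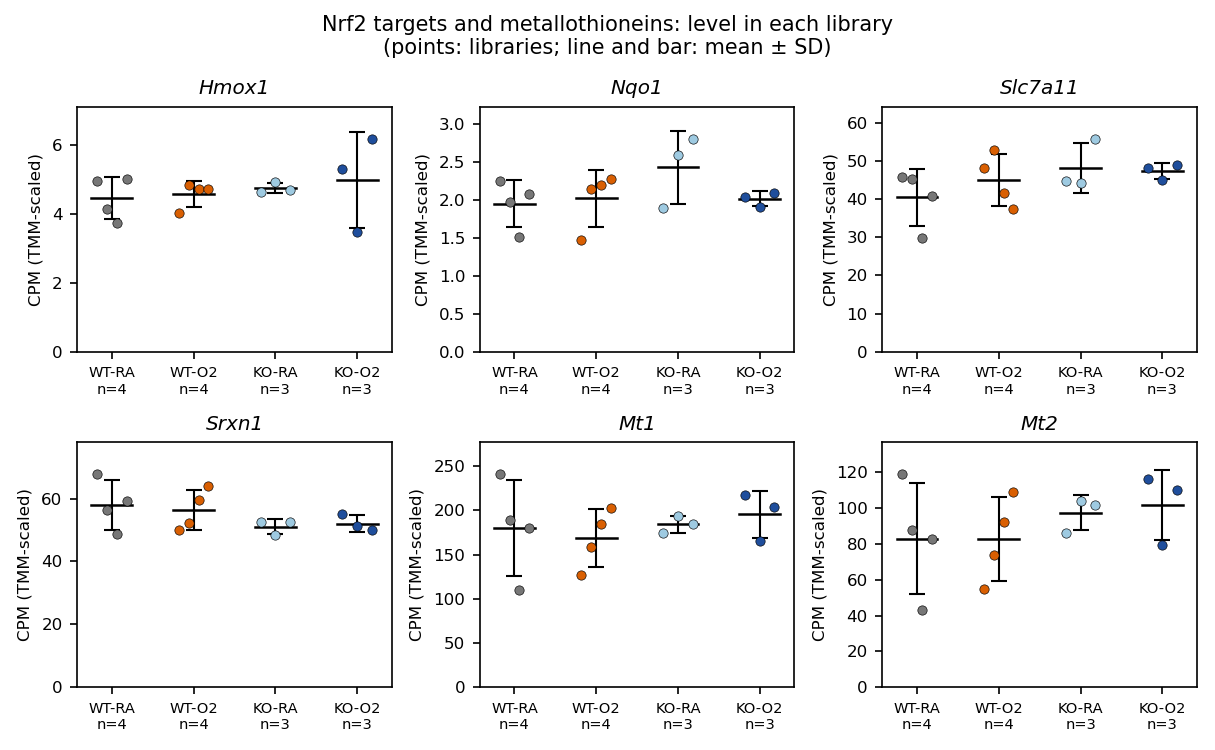
TMM-scaled CPM of Hmox1, Nqo1, Slc7a11, Srxn1, Mt1 and Mt2 in each library (points), by group, with the mean and SD. In all 6 genes the hyperoxic libraries of each genotype overlap the room-air libraries, and WT-RA mouse 3 is the lowest WT-RA library in each.

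The metallothioneins varied more between wild-type mice than between exposures. Mt1 was at 241, 189, 110 and 180 CPM in WT-RA and at 127, 159, 184 and 203 CPM in WT-O2. Mt2 was at 119, 87.5, 42.9 and 82.6 CPM in WT-RA and at 55.0, 73.9, 92.5 and 109 CPM in WT-O2. In both genes mouse 3 was lowest in WT-RA and mouse 1 lowest in WT-O2, the mice with the lowest summed oligodendrocyte markers of their groups (7810 and 4890 CPM). Across the 8 wild-type mice the oligodendrocyte score gave Pearson r = 0.831 with Mt1 and 0.773 with Mt2 (exact permutation, adjusted p = 0.112 and 0.143 over 86 relations), neither below 0.1. In the knockout Mt1 was at 174, 194 and 184 CPM in room air and at 217, 165 and 204 CPM in hyperoxia. Mt2 was at 86.1, 104 and 102 CPM in KO-RA and at 116, 79.4 and 110 CPM in KO-O2. As in wild type, the exposures overlapped.

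The log2 fold changes in wild type were -0.10 for Mt1 (95% interval -0.50 to 0.30) and -0.01 for Mt2 (95% interval -0.54 to 0.53). In the knockout they were 0.09 for Mt1 (95% interval -0.37 to 0.55) and 0.07 for Mt2 (95% interval -0.55 to 0.68). Mt3, the brain-enriched metallothionein, was at 151, 148, 132 and 151 CPM in WT-RA and at 122, 116, 153 and 155 CPM in WT-O2, with a log2 fold change of -0.09 (95% interval -0.29 to 0.11). None of the 3 was called, and the intervals of Mt2, whose replicates spread most, are wide enough to hold a log2 change of more than 0.32 either way.

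Enzymes of glutathione and peroxide metabolism showed small differences with hyperoxia in wild type, none called. Gpx1, the cytosolic glutathione peroxidase, was at 45.3, 43, 44.7 and 52.3 CPM in WT-RA and at 34.0, 38.2, 40.4 and 45.9 CPM in WT-O2. Hyperoxic mice 1 to 3 were below all room-air mice and mouse 4 was among them. Its log2 fold change was -0.23 (95% interval -0.43 to -0.02), with edgeR unadjusted p = 0.0329 and adjusted p = 0.355. Gclm, the modifier subunit of glutamate-cysteine ligase, had a log2 fold change of -0.17 (SE 0.07, edgeR adjusted p = 0.367), while Gclc, the catalytic subunit, was at 0.00 (95% interval -0.12 to 0.13).

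Of the enzymes that remove superoxide and peroxide directly, Cat, Sod1 and Sod2 stayed within narrow intervals. Cat, catalase, was at 87.9, 76.6, 77.3 and 76.3 CPM in WT-RA and at 84.7, 83.3, 83.3 and 82.7 CPM in WT-O2, where room-air mouse 1 stood above all others, with a log2 fold change of 0.07 (95% interval -0.06 to 0.20). Sod1, the cytosolic superoxide dismutase, had a log2 fold change of 0.01 (95% interval -0.13 to 0.14). Sod2, the mitochondrial form, was at 136 to 147 and 129 to 148 CPM (log2 fold change -0.01, 95% interval -0.15 to 0.13).

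The secreted superoxide dismutase Sod3 was at 12.9 to 16.9 CPM in WT-RA and 11.9 to 12.6 in WT-O2, where the groups did not overlap. Its log2 fold change of -0.21 (95% interval -0.48 to 0.06) was not called. The 6 peroxiredoxins, thiol peroxidases recycled by thioredoxin, ranged in log2 fold change from -0.10 (Prdx4 and Prdx5) to 0.03 (Prdx2), and their median was -0.05. Fth1, the heavy chain of the iron store ferritin, was at 834, 854, 795 and 959 CPM in WT-RA and at 748, 741, 811 and 810 CPM in WT-O2 (log2 fold change -0.15, 95% interval -0.30 to 0.00), not called.

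The rest of the thioredoxin and NADPH genes differed little between exposures in wild type, and none of those named next was called. Txn1 and Txn2, the cytosolic and mitochondrial thioredoxins, had log2 fold changes of -0.04 and -0.13, and their reductases Txnrd1 and Txnrd2 of 0.02 and -0.06. G6pdx, Pgd, Taldo1, Tkt and Me1, which regenerate NADPH or feed its pentose phosphate path, had 0.03, 0.01, -0.17, 0.10 and 0.04 in that order. Of the glutathione S-transferases Gstm1 had the largest value, 0.29 (95% interval -0.01 to 0.59), from 60.3 to 107 CPM in WT-RA and 94.6 to 124 in WT-O2, not called. Gss, Gsr and Gpx4, the last of which reduces lipid peroxides and guards against ferroptosis, had -0.14, -0.02 and -0.05, and Gpx3 and Gpx8 had 0.33 (95% interval -0.14 to 0.80) and -0.03.

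Of the 43 genes in wild type, the 95% interval lay within 0.32 on the log2 scale in both directions for 28 and within 1.5-fold for 40. The 3 others were Txnip, Gpx3 and Gstm1. In the knockout, 0 of 43 genes were called by edgeR with hyperoxia, against 0.012% of all genes (2), and DESeq2 also called 0. At an unadjusted p below 0.05 there was 1 (Txnip), against 4.86% of all genes. The libraries did not overlap for 4 of the 43 (Gclc, Gstm1, Prdx5 and Txnip), against 11.8% of all genes. The knockout intervals lay within 0.32 for 26 genes and within 1.5-fold for 37, the others being Gpx3, Gpx8, Gstm1, Mt2, Nqo1 and Txnip.

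**Figure D3:**
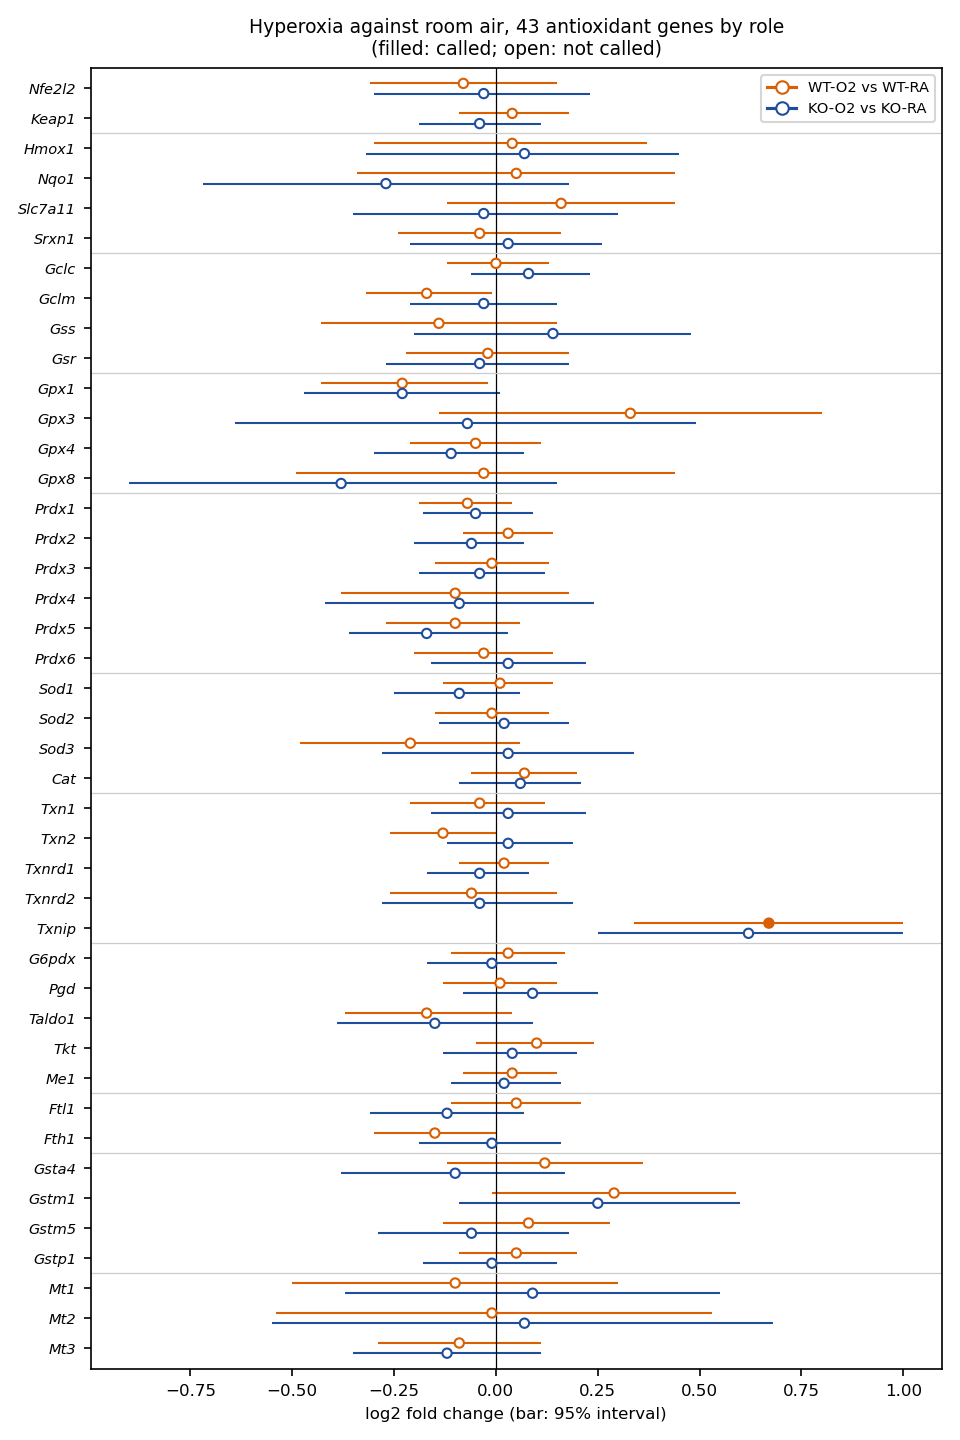
Log2 fold change with hyperoxia of the 43 antioxidant genes in wild type (orange) and knockout (blue), ordered by role, with 95% intervals (bars). Txnip stands to the right of 0 in both genotypes (0.67 and 0.62), and its wild-type point is the one filled as called.

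The interaction of genotype and hyperoxia was tested for every gene. None of the 43 was called by edgeR or by DESeq2, against 0% of all genes, and none of the 43 had an unadjusted p below 0.05, against 4.05% of all genes. The intervals of this difference lay within 0.32 for 18 of the 43 and within 1.5-fold for 34, so for the other 9 a difference of that size between the genotypes was neither shown nor outside the interval. Those 9 were Gpx3, Gpx8, Gss, Gsta4, Mt1, Mt2, Nqo1, Slc7a11 and Sod3.

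The comparisons of knockout with wild type asked what differed between the genotypes in each exposure. In room air the glutathione synthetase gene Gss and the glutathione peroxidase gene Gpx1 were lower in knockout and Txnip was higher. These were 3 of 43 genes called, against a background of 10.4% of all genes (1738), of which 3.75% of genes were higher and 6.70% lower. In hyperoxia Gpx1 and Gpx3 were lower, 2 of 43 genes, against 6.86% of all genes (1142), 2.51% higher and 4.35% lower. Counts this small do not set the antioxidant genes apart from the background in either comparison. The WT-RA and WT-O2 libraries used here are the same as in the comparison of exposures, so the values are set side by side and not related to each other. At an unadjusted p below 0.05 there were 10 and 5 of the 43, against 23.5% and 18.7% of all genes. The median absolute log2 fold changes of the 43 were 0.091 and 0.078, against 0.137 and 0.122 over all genes, which were not matched for expression level.

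Gpx1 was at 43 to 52.3 CPM in WT-RA and at 34.1, 37.2 and 37.5 CPM in KO-RA. In hyperoxia it was at 34.0, 38.2, 40.4 and 45.9 CPM in WT-O2 and at 34.8, 26.9 and 31.1 CPM in KO-O2. The room-air groups did not overlap, and in hyperoxia KO-O2 mouse 1 lay above WT-O2 mouse 1. The log2 fold change was -0.35 in room air (SE 0.10, edgeR adjusted p = 0.0442) and -0.36 in hyperoxia (SE 0.10, edgeR adjusted p = 0.0624). The knockout fold changes in room air and in hyperoxia share no libraries.

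Gpx3, the secreted glutathione peroxidase, was at 10.4, 14.1, 11.6 and 23.0 CPM in WT-RA and at 8.54, 9.93 and 10.7 CPM in KO-RA. In hyperoxia it was at 12.4, 23.9, 17.4 and 20.5 CPM in WT-O2 and at 9.52, 9.24 and 8.96 CPM in KO-O2. The knockout libraries lay close together and the wild-type libraries were spread upward. The groups did not overlap in hyperoxia, while in room air WT-RA mouse 1 lay just below KO-RA mouse 3. It differed by a log2 fold change of -1.01 in hyperoxia (SE 0.25, 95% interval -1.53 to -0.48, edgeR adjusted p = 0.0269) and -0.60 in room air (SE 0.25, edgeR adjusted p = 0.145), and the interaction was -0.40 (95% interval -1.14 to 0.33).

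Gss, which makes the last bond of glutathione, was at 26.3, 19.1, 16.5 and 19.9 CPM in WT-RA and at 14.5, 14.5 and 15.7 CPM in KO-RA. All KO-RA libraries were below all WT-RA libraries, with WT-RA mouse 1 standing well above its group. The log2 fold change was -0.46 in room air (SE 0.15, edgeR adjusted p = 0.067) and -0.17 in hyperoxia (SE 0.15, edgeR adjusted p = 0.604). Txnip was 0.46 higher on the log2 scale in KO-RA than in WT-RA (SE 0.17, edgeR adjusted p = 0.0942), although WT-RA mouse 1, at 33.7 CPM, lay above KO-RA mouse 1, at 29.2. In hyperoxia its log2 fold change was 0.41 (edgeR adjusted p = 0.168), not called, with all KO-O2 libraries above all WT-O2 libraries.

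Markers of several cell types and regions also differed between the genotypes. In room air 7 of 7 oligodendrocyte markers, 6 of 6 striatal and 4 of 6 thalamic neuron markers were called lower in knockout, and 7 of 7 hippocampal neuron markers higher. In hyperoxia 4 of 7, 6 of 6 and 4 of 6 were called lower and 5 of 7 higher. Thalamic markers summed to 88.6 to 454 CPM over the wild-type libraries and to 84.3 to 99.7 over the knockout libraries. Of 8 astrocyte markers 2 were called higher in each, with sums of 3870 to 4460 CPM in wild type and 4540 to 5290 in knockout.

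With the striatal and thalamic scores in the fit, Gss and Gpx1 in room air turned to 0.15 and 0.07, Gpx1 in hyperoxia to 0.07, and Gpx3 in hyperoxia was at -0.14, none called. With the oligodendrocyte score in the fit, Gss turned to 0.08, Gpx1 was at -0.03 and -0.14, and Gpx3 in hyperoxia was at -0.68, none called. Txnip remained positive, at 0.96 and 0.89 with the neuron scores (not called) and at 0.85 and 0.66 with the oligodendrocyte score (called in both). The striatal and thalamic scores together accounted for 0.891 of the variance of genotype (R squared) and the oligodendrocyte score for 0.601, so genotype and these scores can hardly be told apart with 14 mice.

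Single libraries also decided genotype calls. Gss in room air was not called without WT-RA mouse 1 (-0.30) or without any 1 of the 3 KO-RA mice (-0.48 to -0.44). Gpx1 in room air was not called without WT-RA mouse 4 (-0.29) or KO-RA mouse 1 (-0.31), and in hyperoxia without WT-O2 mouse 3 (-0.34) or 4 (-0.27) or KO-O2 mouse 2 (-0.27) or 3 (-0.36). Gpx3 in hyperoxia was not called without KO-O2 mouse 3 (-0.98), while in room air it became called without WT-RA mouse 1 (-0.73) or 3 (-0.69), and was at -0.31 without WT-RA mouse 4. Txnip in room air was called without WT-RA mouse 1 (0.67), KO-O2 mouse 1 or KO-O2 mouse 2 (both 0.47), and not without any other of the 14, where its log2 fold change was 0.35 to 0.56.

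The remaining antioxidant genes were not called between genotypes. Mt3 was at 151, 148, 132 and 151 CPM in WT-RA and at 187, 175 and 169 CPM in KO-RA. The groups did not overlap, and the log2 fold change of 0.28 (SE 0.10, edgeR adjusted p = 0.0887) fell short of the fold minimum. In hyperoxia it was 0.25 (edgeR adjusted p = 0.168), with KO-O2 libraries at 176, 148 and 165 CPM, which overlapped those of WT-O2. Mt1 and Mt2 gave 0.03 and 0.23 in room air and 0.21 and 0.30 in hyperoxia. With the oligodendrocyte score in the fit all 3 metallothioneins were called higher in knockout in both exposures.

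The room-air libraries of the genotypes did not overlap for 6 of the 43 genes (Gclc, Gpx1, Gss, Gstm5, Mt3 and Taldo1), against 19.6% of all genes, and the hyperoxic libraries for 3 (Gpx3, Prdx4 and Txnip), against 19.0%. Taldo1, the transaldolase of the pentose phosphate path, was at 88.6, 86.2, 80.3 and 89.7 CPM in WT-RA and at 68.8, 79.8 and 72.6 CPM in KO-RA (log2 fold change -0.23, edgeR adjusted p = 0.209). Prdx4, the peroxiredoxin of the endoplasmic reticulum, was at 10.2, 8.71, 9.38 and 11.5 CPM in WT-O2 and at 8.09, 8.29 and 8.33 CPM in KO-O2 (log2 fold change -0.27, 95% interval -0.58 to 0.03). Gsta4, which conjugates the lipid peroxidation product hydroxynonenal, was at 23.7, 27, 18.6 and 26.9 CPM in WT-RA and at 26.8, 30.8 and 29.2 CPM in KO-RA (log2 fold change 0.27, edgeR adjusted p = 0.196). In the last of these 2 WT-RA mice reached the knockout range, and none of the 3 genes was called. Other genes with an unadjusted p below 0.05 and no call were Gclm (-0.21), Gpx3 (-0.60), Gpx8 (0.53) and Gstm5 (0.22) in room air and Fth1 (0.17) in hyperoxia. Gpx8 was at 5.79, 11.3 and 12.9 CPM in KO-RA and 7.23, 5.91 and 9.98 CPM in KO-O2. KO-RA mouse 1 and KO-O2 mouse 2, its lowest libraries in the knockout, were also lowest in summed choroid plexus markers (36.8 and 106 CPM, the other knockout libraries 1710 to 3400). Without KO-RA mouse 1 its log2 fold change in room air was 0.80 and called (edgeR adjusted p = 0.0257), and without KO-RA mouse 3 it was 0.32.

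Nfe2l2 and the classical Nrf2 targets gave no call between genotypes. The log2 fold changes in room air were 0.03 for Nfe2l2, 0.09 for Hmox1, 0.31 for Nqo1, 0.26 for Slc7a11 and -0.18 for Srxn1. In hyperoxia they were 0.07, 0.12, -0.01, 0.07 and -0.12 in the same order. Their 95% intervals lay within 1.5-fold in both directions except for Nqo1 in room air (-0.10 to 0.73).

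**Figure D4:**
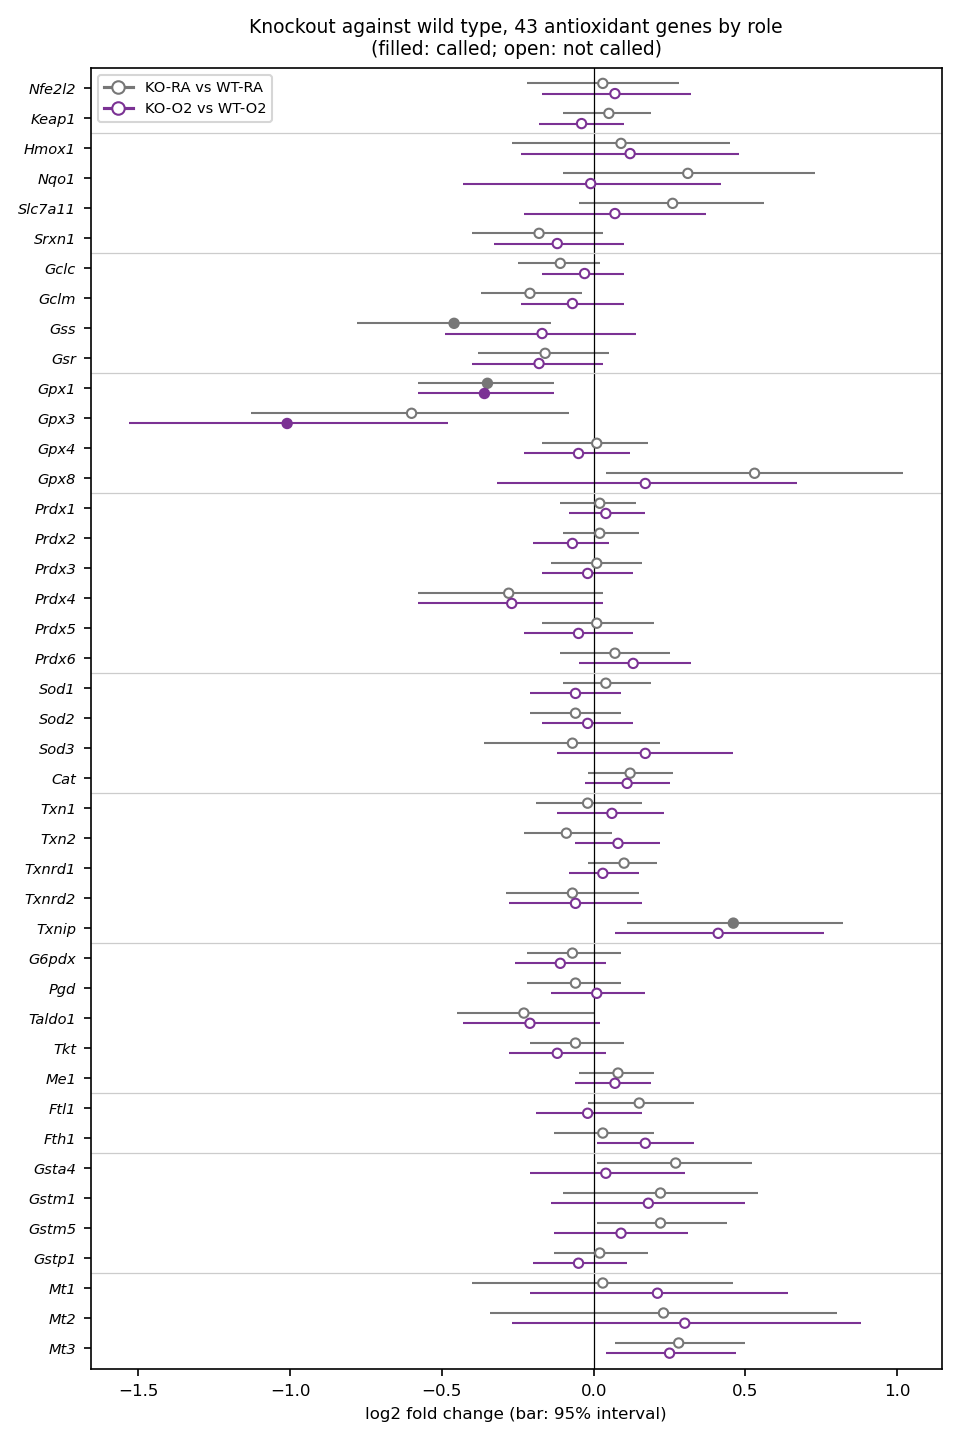
Log2 fold change of the 43 antioxidant genes in knockout against wild type, in room air (grey) and in hyperoxia (purple), ordered by role, with 95% intervals (bars). Filled points are called: Gss, Gpx1 and Txnip in room air (-0.46, -0.35 and 0.46), and Gpx1 and Gpx3 in hyperoxia (-0.36 and -1.01).

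A wider list of 80 pathway genes, partners and repressors of Nrf2, glutathione turnover, further transferases, selenoprotein and methionine sulfoxide repair, reductases and metal handling, was examined in the same fit, and 79 were tested. With hyperoxia in wild type 3 were called higher and 0 lower, beside the background of 0.643%, and 11 had an unadjusted p below 0.05, against 12.2% of all genes. The 3 were Osgin1, Maff and Gstm4. In the knockout 0 were called by edgeR with hyperoxia and 5 had an unadjusted p below 0.05, against 4.86% of all genes. For the interaction 0 were called and 5 had an unadjusted p below 0.05, against 4.05%. Knockout against wild type gave 3 higher and 1 lower in room air and 2 higher and 1 lower in hyperoxia, against the backgrounds of 10.4% and 6.86%, and 15 in each had an unadjusted p below 0.05, against 23.5% and 18.7%.

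Osgin1, an oxidative stress-induced growth inhibitor known as an Nrf2 target, rose from very low counts. In room air the wild-type mice had estimated counts of 3, 1, 3 and 4, and in hyperoxia 12, 13, 15 and 33. In the knockout they were 7, 15 and 15 in KO-RA and 27, 11 and 22 in KO-O2. All WT-O2 libraries were above all WT-RA libraries, and all KO-RA libraries were too, while the knockout exposures overlapped.

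Summed over libraries and scaled for library size, Osgin1 had 73 counts in WT-O2 against 11 in WT-RA, a ratio of 6.64 with an exact interval for counting error of 3.50 to 13.9. The log2 fold change in wild type was 2.67 (SE 0.51, edgeR adjusted p = 0.0574), that in the knockout was 0.73 (edgeR adjusted p = 0.997), and KO-RA against WT-RA gave 2.12 (SE 0.56, edgeR adjusted p = 0.0270). The interaction was -1.95 (95% interval -3.44 to -0.45), with edgeR unadjusted p = 0.0144 and adjusted p = 1.

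Maff, a small Maf protein that pairs with Nrf2 on DNA, was at 1.64, 1.09, 1.41 and 1.47 CPM in WT-RA and at 2.38, 3.55, 2.41 and 4.70 CPM in WT-O2. In the knockout it was at 1.45, 1.75 and 1.46 CPM in KO-RA and at 3.08, 2.05 and 3.11 CPM in KO-O2. In both genotypes no hyperoxic library was as low as any room-air library. The log2 fold change was 1.21 in wild type (SE 0.23, edgeR adjusted p = 0.0574) and 0.82 in the knockout (SE 0.27, edgeR adjusted p = 0.861), and the interaction was -0.39 (95% interval -1.15 to 0.36).

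Gstm4, a mu-class glutathione transferase, was at 5.92 to 6.44 CPM in WT-RA and 7.88 to 9.57 in WT-O2, without overlap, with a log2 fold change of 0.42 (SE 0.10, edgeR adjusted p = 0.0973). The wild-type calls of Osgin1 and Maff were lost without WT-RA mouse 2 (log2 fold changes 2.40 and 1.11, edgeR adjusted p = 0.134 and 0.136) or WT-O2 mouse 2 (2.80 and 1.17, edgeR adjusted p = 0.126 and 0.200). They were also lost with only the 2 groups compared in the fit (2.67 and 1.22). With WT-O2 mouse 4 placed in room air, as its treatment label says, they were at 0.61 and 0.43 (edgeR adjusted p = 0.833 and 0.751), and Osgin1 in KO-RA against WT-RA was at 0.49 (edgeR adjusted p = 0.758). DESeq2 gave Osgin1 in wild type a log2 fold change of 2.73 without an adjusted p, so it was not called there. With the striatal and thalamic scores in the fit, Osgin1 in KO-RA against WT-RA was at 3.92 and not called (edgeR adjusted p = 0.224). The call of Gstm4 held in 7 of 24 alternatives, with log2 fold changes from 0.35 to 0.45.

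Between genotypes, the methionine sulfoxide reductases Msra and Msrb2, which repair oxidised methionine, were higher in knockout in both exposures. Msra was at 32.0, 34.1, 39.0 and 31.1 CPM in WT-RA and at 56.5, 57.5 and 51.4 CPM in KO-RA. In hyperoxia it was at 46.1, 36.3, 37.9 and 38.6 CPM in WT-O2 and at 59.9, 58.1 and 52.2 CPM in KO-O2. Every knockout library was above every wild-type library.

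The log2 fold changes of Msra were 0.70 (SE 0.09, edgeR adjusted p = 0.000408) and 0.51 (SE 0.09, edgeR adjusted p = 0.00427), and those of Msrb2 were 0.38 and 0.35 (edgeR adjusted p = 0.0128 and 0.0303). With the striatal and thalamic scores in the fit Msra was at 0.32 and 0.14 and Msrb2 at 0.47 and 0.44, none called. Msrb2 was also not called with the oligodendrocyte score (0.39 and 0.36), nor in hyperoxia without KO-O2 mouse 1 (0.28) or 3 (0.35). Trf, transferrin, which oligodendrocytes make in brain, was at 76.5 to 223 CPM in WT-RA and 26.7 to 50.2 in KO-RA, with a log2 fold change of -1.91 (SE 0.41, edgeR adjusted p = 0.00861), and with the oligodendrocyte score in the fit it was at -0.10.

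**Figure D5:**
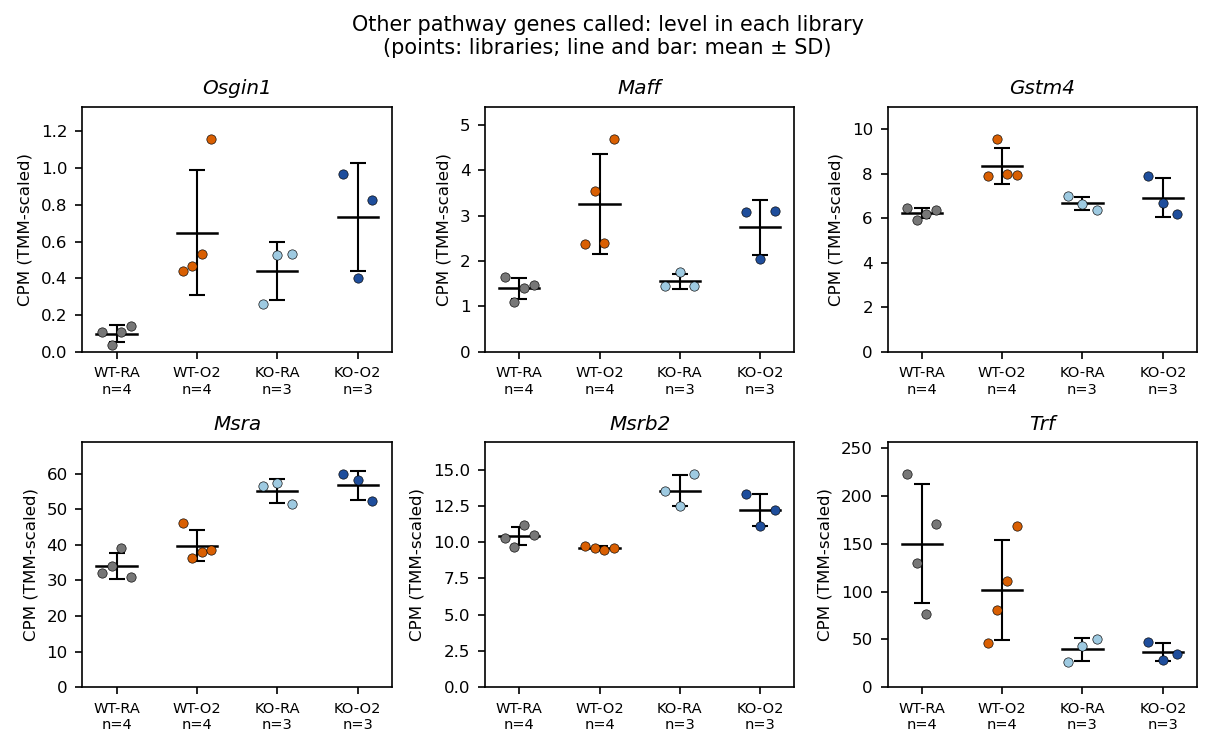
TMM-scaled CPM of Osgin1, Maff, Gstm4, Msra, Msrb2 and Trf, the wider pathway genes called in a comparison, in each library (points), by group, with the mean and SD. Osgin1, Maff and Gstm4 are higher in all WT-O2 than in all WT-RA libraries, and Msra and Msrb2 are higher in all knockout than in all wild-type libraries of the same exposure.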

How the data were processed

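Poly(A)-selected RNA of 14 hippocampi was sequenced as paired ends, 1 library per mouse. The authors deposited estimated counts per gene from kallisto on GRCm39 (Ensembl annotation) summarised with tximport, in 1 table; tool versions and count scaling are not given in the sources used here, and 40.8 to 43% of values per library were not whole (tolerance 1e-06). Groups came from sample titles, and 0 columns stayed without a sample. Counts were rounded, filtered with filterByExpr of edgeR 4.0.16 (R 4.3.3, limma 3.58.1), scaled by TMM and fitted over all 4 groups with edgeR's quasi-likelihood test and Benjamini-Hochberg adjustment over 16637 genes. A gene was called at adjusted p below 0.1 and a log2 fold change of at least 0.32 in either direction. Ftl1, Gpx4 and Gstp1 had counts that were not whole, as reads divided between similar genes give. So did others of the 43, among them Gss, Slc7a11, Gclm, Prdx1, Prdx5, Sod2 and Txn2. The values of all these genes are less certain. Among the listed copies of Ftl1, Gpx4 and Gstp1, Gstp2 had up to 83 counts in a library and Ftl1-ps1 up to 20.

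The genes, the wider lists, the markers and the tests were chosen with earlier results of these data known. By the naming rule, values per library are given for genes called in a comparison, the gene with the smallest p in each role, and the regulators, classical Nrf2 targets, Txnip and metallothioneins. By the same rule other genes get ranges, or a fold change where p was below 0.05. Fold changes are also given for others with a higher p, such as Sod1 and Txn1. Of the wider list, called genes are named. A few others that did not overlap between groups, or serve as a contrast, were named after their values were seen. Alternatives were DESeq2 1.42.0, other scaling and filters, 2 groups only, leaving out each library, the other label of WT-O2 mouse 4, other thresholds and marker covariates. No p-value goes beyond the spread between these mice. Nnt was not tested because its symbol is shared by 2 gene identifiers.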

Additional observations from a re-analysis of the deposited data

Results flagged for a closer look

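In each wild-type group of 4 mice, the highest and lowest library of each of the 43 genes was compared with the others by Dixon's test, 86 groups in all, and 10 were marked. Chance marks about 1 in 20 groups. Groups of 3 were not tested. In WT-O2, mouse 1 was low for Hmox1 at 4.03 CPM (the others 4.73 to 4.84) and for Nqo1 at 1.47 CPM (2.15 to 2.28), and high for Gpx8, a glutathione peroxidase of the endoplasmic reticulum, at 8.24 CPM (6.31 to 6.41). WT-O2 mouse 3 was low for Prdx3, the mitochondrial peroxiredoxin, at 36.4 CPM (39.7 to 40.1), and high for Prdx6 at 131 CPM (122 to 124). In WT-RA, mouse 1 was high for Cat at 87.9 CPM (76.3 to 77.3) and for G6pdx, the entry enzyme of the pentose phosphate path, at 43.6 CPM (35.3 to 36.0). WT-RA mouse 3 was low for Mt3 at 132 CPM (148 to 151) and high for Tkt, transketolase, at 169 CPM (152 to 155). WT-RA mouse 4 was high for Prdx1 at 102 CPM (97.4 to 98.1).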

How the results depend on the processing

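No paired analysis was possible because the labels give no replicate numbers, and those used here only name the mice. The numbers of antioxidant genes called were 1 with hyperoxia in wild type, 0 in knockout, 3 for genotype in room air, 2 in hyperoxia and 0 for the interaction; for the knockout and the interaction they were 0 under every alternative run. With only the 2 groups compared in the fit the other counts were 0, 1 and 3, and with an adjusted p below 0.05 they were 0, 1 and 1. With a fold of 1.5 they were 1, 0 and 1. With WT-O2 mouse 4 in room air, hyperoxia in wild type gave 0, and genotype gave 3 (Gpx1, Gpx3 and Gss) in room air and 2 (Gpx3 and Mt3) in hyperoxia. With the striatal and thalamic scores, genotype gave 0 and 0. Leaving out 1 mouse at a time gave 0 to 1, 1 to 3 and 0 to 3.

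2 alternatives were chosen after seeing the data. Without the 2 libraries lowest in choroid plexus markers (KO-RA mouse 1 and KO-O2 mouse 2), genotype gave 1 (Gpx8) and 0. With the oligodendrocyte score the counts were 2 (Gstm1 and Txnip), 8 (Gsta4, Gstm1, Gstm5, Mt1, Mt2, Mt3, Nqo1 and Txnip) and 4 (Mt1, Mt2, Mt3 and Txnip).

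Among the 456 values of selected genes under alternatives, those that turned sign or reached 0 did so under marker scores. Values near 0 of genes that were not called also turned elsewhere, as Hmox1 with hyperoxia in knockout, which ranged from -0.12 upward. With the striatal and thalamic scores, genotype in room air gave 0 for Gclm, 0.15 for Gss, 0.07 for Gpx1, 0.26 for Gpx3 and 0.17 for Taldo1, and in hyperoxia 0.07 for Gpx1. With the oligodendrocyte score it gave in room air 0.02 for Gclm, 0.08 for Gss and 0.15 for Taldo1. The cause was not tested. Of the 456, 381 kept direction and call, 50 lost a call, 16 gained one and 9 turned sign.

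Over all genes DESeq2 called 310 with hyperoxia in wild type, against 107 by edgeR, and 13 in knockout, against 2. It called 1840 and 1317 between genotypes, where edgeR called 1738 and 1142. Groups of 3 and 4 mice limit what can be detected, and genes of few counts such as Nqo1 and Osgin1 are measured least precisely.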

Other observations

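Oligodendrocyte markers differed widely among the wild-type mice, so the level of each antioxidant gene was set beside their score across the 8 wild-type mice and, separately, the 6 knockout mice (86 relations, exact permutation tests, adjusted over all 86 by Benjamini-Hochberg). Genes with an adjusted p below 0.1 by both measures are described first. In wild type Gss was positively related, with Pearson r = 0.872 (exact permutation p = 0.00506, adjusted p = 0.0995) and Spearman rho = 0.952 (exact permutation p = 0.00114, adjusted p = 0.0796). Ftl1, the light chain of ferritin, was negatively related, with r = -0.865 and rho = -0.929 (exact permutation, adjusted p = 0.0995 and 0.0796). Without the 2 mice farthest from the median score r was 0.784 for Gss and -0.940 for Ftl1. In knockout Prdx1 was positively related, with r = 0.915 and rho = 1.00 (exact permutation, adjusted p = 0.0995 and 0.0796). By Pearson alone Taldo1 (r = 0.911, exact permutation, adjusted p = 0.0768), Prdx5 (r = 0.903, adjusted p = 0.0906) and Srxn1 (r = 0.866, adjusted p = 0.0995) also passed in wild type, each with an adjusted p of 0.143 by Spearman. The wild-type mice span both exposures, and groups of 4 and 3 are too few for a value within an exposure.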
